A study of Saccharomyces cerevisiae with 12 samples.

Results

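The response of a yeast strain that lacks its hexose transporters to a pulse of glucose was examined by comparing its arrays labelled 20 min after the pulse with its arrays labelled 0 min, across all measured genes of the budding yeast Saccharomyces cerevisiae. The null strain (KOY.VW101P), in which all known hexose transporter genes were deleted, and the isogenic reference strain (KOY.PK2-1C83P), which keeps them, are both of the CEN.PK laboratory background, and each genotype is represented by 1 strain. Both were grown in chemostats, continuous cultures in which the feed sets the growth rate, with ethanol as the limiting nutrient and a dilution rate of 0.1 per h. Each strain was sampled 20 min after the pulse and at steady state (0 min), in what the design text calls biological triplicates, so the null strain took 6 of the 12 arrays. The sources used here do not give the amount of glucose in the pulse, and no culture pulsed with something other than glucose is among the samples, so every difference below compares pulsed with steady-state cells. The series asks whether the transcriptional response to glucose requires that the sugar be taken up.

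Yeast reads glucose by several routes. The membrane sensors Snf3 and Rgt2 bind the sugar outside the cell and, through the casein kinases Yck1 and Yck2, lift the repression that the factor Rgt1 and its partners Mth1 and Std1 exert on hexose transporter genes and on MIG2 and MIG3. Glucose that has entered the cell is phosphorylated by hexokinases and then lowers the activity of the kinase Snf1, so that Mig1 represses genes for other carbon sources, and raises cyclic AMP and protein kinase A activity, which favours ribosome production over stress defence.

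The main comparison took replicates 1 and 3, 2 arrays per time, because the arrays of replicate 2 lay with the other labelled time. This can be seen in MIG2, which on the null arrays of replicate 2 had log2 intensities of 3.43 at 20 min, against 13.59 at 0 min, the reverse of the other pairs given below. Since replicate 2 was set aside on measured values, tests over replicates 1 and 3 leave out its spread. No array was moved to another group, and all 3 replicates under their labels are given beside the main result. Values are log2 intensities after quantile normalization, they lay between 2.06 and 15.84, and each pair of values is in the order of replicates 1 and 3. The deleted genes were used to check the strain: 15 hexose transporter genes were measured, and their median level was 2.06 at 20 min and 2.06 at 0 min, the bottom of the scale. None was called, but genes at the bottom of the scale could hardly be called, and a median does not show single members. In the reference strain 3 of the 15 rose and 6 fell, and their levels there were not compared here. Across the tested genes the 2 arrays at 20 min differed by a median of 0.18 log2 units and those at 0 min by 0.24.

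With replicates 1 and 3, limma called 1501 of 5449 genes (27.5%) at an adjusted p under 0.05, of which 702 (12.9%) rose and 799 (14.7%) fell. Changes of at least 1 log2 unit, a doubling or more, were called for 338 risen genes (6.2%) and 460 fallen genes (8.44%), while 2244 genes had an unadjusted p under 0.05. With all 3 replicates under their labels the same model called 0 genes (0%), and 21 had an unadjusted p under 0.05. Of the 1501 genes, 1453 (96.8%) had a replicate 2 difference of the opposite sign, as the plot of differences by replicate number shows. The share over all genes was not counted, so this does not set the called genes apart from the rest. The split into risen and fallen depended on the scaling, with 250 risen and 1183 fallen before quantile normalization, at a median of -0.13 over all genes. After median centring of the arrays it was 685 risen and 941 fallen, at a median of 0.12, against a median of 0.04 after quantile normalization, so small differences have no firm sign. The 4 null arrays alone, a fit with fewer arrays, gave 564 calls, 293 risen and 271 fallen, and leaving out 1 of them at a time gave 750 to 1049. Genes named below kept their call in each of these 4 fits unless another value is given, and this was so for 71 of the 81 called genes named.

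**Figure D1:**
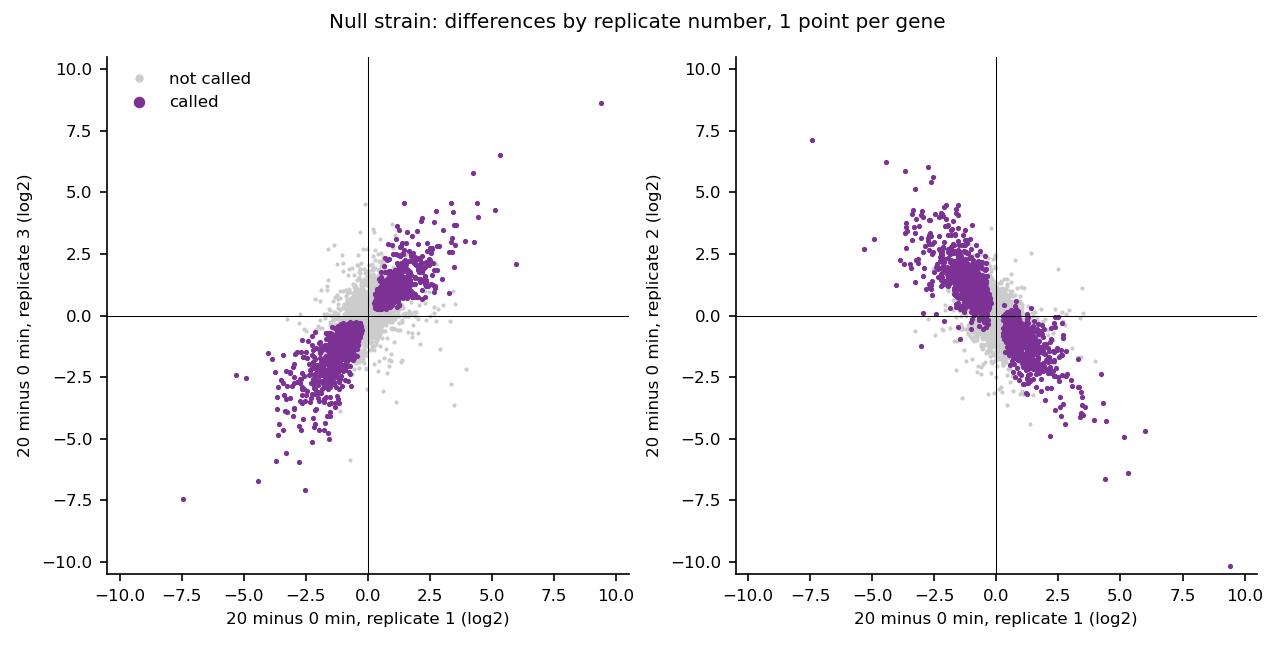
Differences of 20 minus 0 min (log2) in the null strain for replicate 1 on the horizontal axes, against replicate 3 (left) and replicate 2 (right) on the vertical axes. Each point is a gene and the 1501 called genes are coloured. Called genes ran along the rising diagonal in replicates 1 and 3 by the way they were called, and 1453 of them had the opposite sign in replicate 2.

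The 3 genes that mark the pulsed null strain, MIG2, MIG3 and CIN5, were among those that rose most. MIG2, which encodes a zinc-finger repressor of glucose-repressed genes, had 12.84 and 12.91 at 20 min, against 3.43 and 4.29 at 0 min. Its 0 min values lay near the bottom of the scale, so the size of its difference of 9.02 is not well determined, and it is given without a test because MIG2 was the gene used to set replicate 2 aside. MIG3, which encodes a related repressor, had 11.79 and 11.43 at 20 min, against 6.64 and 7.14 at 0 min, a rise of 4.71 (SE 0.20, adjusted p = 0.000819). CIN5, which encodes a factor of the Yap family of bZIP proteins linked to salt tolerance, had 11.61 and 12.71 at 20 min, against 6.30 and 6.18 at 0 min, a rise of 5.92 (SE 0.39, adjusted p = 0.00179). In replicate 2 the array labelled 20 min was the low one for each of the 3 genes.

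**Figure D2:**
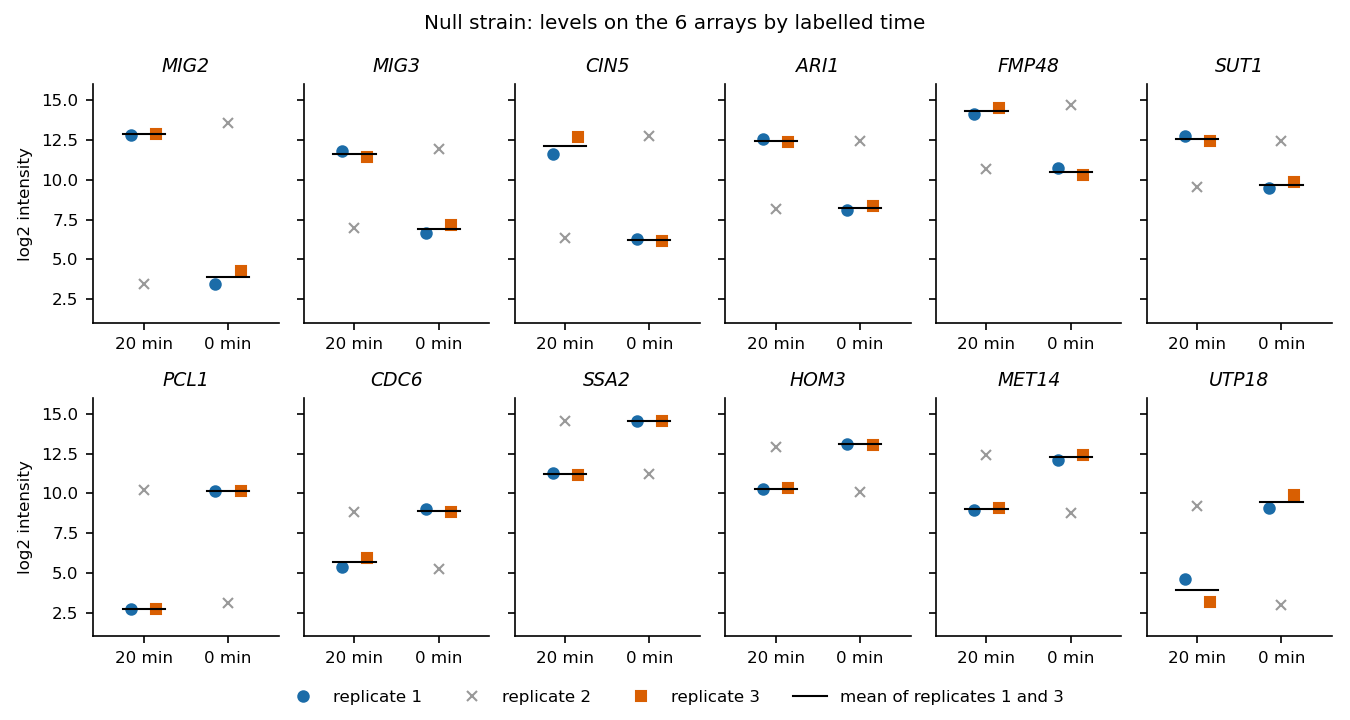
Log2 intensity of 12 genes on the 6 null arrays, with arrays labelled 20 min to the left of those labelled 0 min. Circles, crosses and squares are replicates 1, 2 and 3 and bars are the means of replicates 1 and 3. In each panel replicates 1 and 3 lie together and replicate 2 lies with the other labelled time, and PCL1 in the pulsed arrays lies near the bottom of the scale.

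Of 32 genes for glucose sensing and repression, 6 rose (18.8%), 4 fell (12.5%) and 22 were not called (median 0.11), shares near the 12.9% risen and 14.7% fallen over all genes. MIG2, which was used to set replicate 2 aside, is counted among the 6 that rose. Without 1 null array 5 to 7 rose and 2 to 4 fell, the fewest falls with either 0 min array left out. The risen genes held MIG1, which encodes the main glucose repressor, with 12.10 and 12.15 at 20 min, against 10.63 and 10.82 at 0 min (difference 1.40, SE 0.12, adjusted p = 0.00244). STD1 and MTH1, which encode the paralogous partners of Rgt1, both rose. STD1 had 11.02 and 10.68 at 20 min, against 8.82 and 8.53 at 0 min (difference 2.17, SE 0.25, adjusted p = 0.00451), and MTH1 had 13.63 and 13.64 at 20 min, against 11.44 and 11.22 at 0 min (difference 2.30, SE 0.27, adjusted p = 0.00505). HXK2, which encodes the hexokinase that also takes part in repression, fell, with 12.56 and 12.29 at 20 min, against 13.41 and 13.46 at 0 min (difference -1.01, SE 0.12, adjusted p = 0.00496). ELM1, which encodes a kinase that activates Snf1, fell as well, with 8.56 and 8.18 at 20 min, against 9.77 and 9.63 at 0 min (difference -1.33, adjusted p = 0.00689). YCK2 fell by 1.21 (adjusted p = 0.013), a call that was just lost when a 0 min array was left out, at -1.18 without 0 min replicate 1 (adjusted p = 0.051) and -1.23 without 0 min replicate 3 (adjusted p = 0.0514). The 2 sensor genes had small or unsteady differences. RGT2, the low-affinity sensor, had 9.19 and 8.77 at 20 min, against 9.59 and 9.54 at 0 min, and its fall of 0.59 (adjusted p = 0.0457) was lost at -0.38 without 20 min replicate 3 (adjusted p = 0.126) and -0.56 without 0 min replicate 1 (adjusted p = 0.137) and -0.61 without 0 min replicate 3 (adjusted p = 0.119). With the scaling its size varied, to -1.19 in the values as deposited (adjusted p = 0.0166) and -0.95 after median centring (adjusted p = 0.0141). SNF3, the high-affinity sensor, was not called at -0.20 (95% interval -0.54 to 0.15, adjusted p = 0.335), nor was RGT1 at 0.21 (95% interval -0.27 to 0.68). HXK1 and GLK1, the other glucose-phosphorylating enzymes, were not called at 0.35 (95% interval 0.07 to 0.64) and 0.31 (95% interval -0.06 to 0.69), but after median centring both were called as risen, at 0.68 and 0.62.

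Genes of cyclic AMP and protein kinase A signalling numbered 21, of which 4 rose (19%) and 1 fell (4.76%), with a median of 0.09, against 12.9% risen and 14.7% fallen over all genes. It was 3 risen and 3 fallen in the values as deposited, and 1 to 3 rose without 1 null array, 1 with either 20 min array left out. RGS2, which encodes an inhibitor of the G protein Gpa2 of the cyclic AMP pathway, had 10.23 and 10.45 at 20 min, against 6.82 and 7.30 at 0 min (difference 3.28, SE 0.19, adjusted p = 0.0015). TPK3, which encodes a catalytic subunit of protein kinase A, went the other way, with 7.39 and 7.04 at 20 min, against 9.67 and 9.42 at 0 min (difference -2.33, SE 0.21, adjusted p = 0.00297). Calls on RAS2 and GIS1 were lost when single arrays were left out. RAS2, which encodes a small GTPase that stimulates adenylate cyclase, rose by 1.08 (adjusted p = 0.0147) and was at 1.14 without 20 min replicate 1 (adjusted p = 0.051) and 1.03 without 20 min replicate 3 (adjusted p = 0.0715) and 0.93 without 0 min replicate 3 (adjusted p = 0.061). GIS1, which encodes a factor for genes of the post-diauxic phase, rose by 1.36 (adjusted p = 0.0131) and was at 1.36 without 20 min replicate 1 (adjusted p = 0.0543) and 1.36 without 20 min replicate 3 (adjusted p = 0.0597). In the Yap family, to which CIN5 belongs, 4 of 12 genes rose and 1 fell (median 0.35), with 2 to 4 risen without 1 null array, and YAP3 rose by 1.13 (adjusted p = 0.00649). YAP6, the paralog of CIN5, had 4.91 and 5.99 at 20 min, against 5.44 and 4.92 at 0 min, and its difference of 0.27 had a 95% interval of -0.90 to 1.44.

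Besides MIG2, MIG3 and CIN5, the largest rises fell on genes of different functions. ARI1, which encodes an aldehyde reductase, had 12.55 and 12.39 at 20 min, against 8.13 and 8.37 at 0 min (difference 4.22, SE 0.18, adjusted p = 0.000819). BAG7, which encodes a GTPase-activating protein of the Rho1 pathway, rose by 4.49 (adjusted p = 0.0031) with 0 min values under 5, so its size is uncertain. FMP48, which encodes a protein found in mitochondria, had 14.14 and 14.54 at 20 min, against 10.72 and 10.32 at 0 min (difference 3.82, SE 0.27, adjusted p = 0.00198). ALD3, which encodes a cytosolic aldehyde dehydrogenase induced by stress, had 12.66 and 13.32 at 20 min, against 9.10 and 9.65 at 0 min (difference 3.61, adjusted p = 0.0031). MGA1, which encodes a protein related to heat shock factor, rose by 3.50 (adjusted p = 0.00662), again with 0 min values under 5. The uncharacterised genes YLR108C, YKR075C and YJR115W rose by 3.58, 3.48 and 3.65, and for YLR108C the pulsed arrays stood at 11.93 and 11.87, against 8.46 and 8.18 at steady state.

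Since CIN5 and ALD3 are also known from osmotic stress, the high osmolarity response was counted separately. Of 24 osmotic stress target genes 7 rose and 1 fell (median 0.25, against 12.9% risen and 14.7% fallen over all genes), and 5 to 7 rose when 1 null array was left out. The risen ones held FMP48 and ALD3, described above, and USV1, which encodes a zinc-finger factor, with 13.32 and 13.55 at 20 min, against 11.29 and 10.63 at 0 min (difference 2.48, SE 0.34, adjusted p = 0.00714). GPD1, which encodes the glycerol 3-phosphate dehydrogenase of glycerol production, was not called, with 14.47 and 14.46 at 20 min, against 14.23 and 14.28 at 0 min (difference 0.21, 95% interval -0.12 to 0.54). Of 23 genes of the high osmolarity (HOG) pathway itself 2 rose and 7 fell (median -0.14), but without 1 null array at a time 0 rose and 0 to 1 fell. Of 35 environmental stress genes 7 rose (20%) and 2 fell (median 0.23), and 2 to 7 rose without 1 null array, the fewest without 20 min replicate 3. CTT1, the cytosolic catalase, had 14.18 and 14.63 at 20 min, against 12.96 and 13.39 at 0 min (difference 1.23, adjusted p = 0.0132), with a call that was lost at 1.01 without 20 min replicate 3 (adjusted p = 0.0533). The median level of the environmental stress list at 0 min was 13.90 and the highest value of the scale was 15.84. Whether the scale limited the rises was not tested.

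Of 22 hypoxic and sterol-linked genes 9 rose (40.9%) and 1 fell (4.55%), against 12.9% and 14.7% over all genes, with a list median of 0.98. In the values as deposited 5 rose and 3 fell, with a median of 0.56, and after median centring 8 rose and 2 fell, with a median of 0.81. Without 1 null array at a time 3 to 7 rose, the fewest without 20 min replicate 3 or 0 min replicate 3, and 1 fell each time. SUT1, which encodes a factor that promotes sterol uptake, had 12.74 and 12.45 at 20 min, against 9.47 and 9.86 at 0 min (difference 2.93, SE 0.24, adjusted p = 0.00244). COX5B, the hypoxic form of a cytochrome oxidase subunit, rose by 2.06 (adjusted p = 0.0214) and kept no call without an array, at 2.16 without 20 min replicate 1 (adjusted p = 0.0721) and 1.95 without 20 min replicate 3 (adjusted p = 0.0971) and 1.87 without 0 min replicate 1 (adjusted p = 0.0837) and 2.24 without 0 min replicate 3 (adjusted p = 0.0625). UPC2, which encodes an activator of sterol genes, was the fallen member, with 6.01 and 6.07 at 20 min, against 7.86 and 8.48 at 0 min (difference -2.13, SE 0.26, adjusted p = 0.00545). Of 26 genes of ergosterol synthesis and storage 1 rose and 3 fell (3.85% and 11.5%). The risen one was ARE2, which encodes a sterol acyltransferase, by 2.07 in replicate 1 and 2.36 in replicate 3 (adjusted p = 0.00633), and its call was lost in the values as deposited. ERG2, which encodes a sterol isomerase, fell by 0.84 (adjusted p = 0.00649).

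Some lists of genes that glucose usually represses had risen members and none that fell, where 12.9% of all genes rose. Of 24 genes for peroxisomes and fatty acid oxidation 9 rose (37.5%, median 0.58), among them DCI1, a peroxisomal enoyl-CoA isomerase relative, by 1.35 and PEX5, the peroxisomal import receptor, by 1.34. Without 1 null array 3 to 6 of them rose, 3 without 0 min replicate 3 or 20 min replicate 1. Of 23 trehalose and glycogen genes 5 rose (21.7%, median 0.45), and GIP2, which encodes a subunit that guides the phosphatase Glc7 to glycogen enzymes, had 11.06 and 10.41 at 20 min, against 8.26 and 8.54 at 0 min (difference 2.33, adjusted p = 0.00345). Without 1 null array 1 to 3 rose, and after median centring 10 did. Of 9 genes for maltose and sucrose use 3 rose (33.3%) and 3 to 4 did so without 1 array. IMA1, an isomaltase gene that belongs to a family of near-identical copies and so may share signal with them, had 9.83 and 10.21 at 20 min, against 6.98 and 7.40 at 0 min, and MAL31, a maltose permease gene with close relatives, had 13.55 and 13.93 at 20 min, against 11.73 and 11.38 at 0 min. SUC2, which encodes invertase, had 13.80 and 14.10 at 20 min, against 13.67 and 12.70 at 0 min and was not called at 0.76 (95% interval -0.12 to 1.64). Its steady-state arrays differed from each other by more than either pulsed array differed from replicate 1 at 0 min, and without that array it was called at 1.24.

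**Figure D3:**
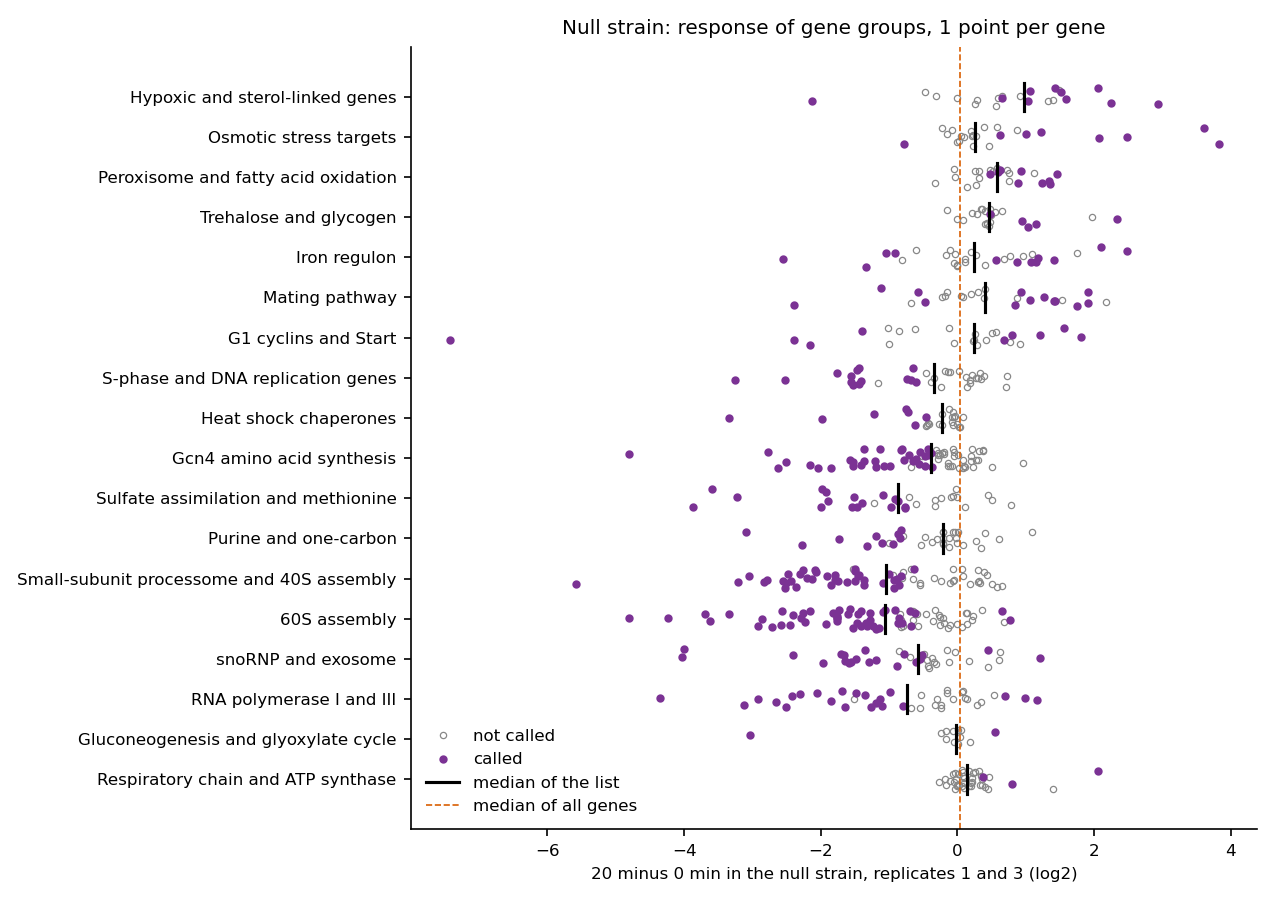
Difference of 20 minus 0 min (log2, replicates 1 and 3) in the null strain for the measured members of 18 gene lists, 1 point per gene. Filled points were called, black bars are list medians and the dashed line is the median of all genes, 0.04. The small-subunit and 60S assembly lists have the lowest medians drawn, -1.05 each, followed by sulfate assimilation and methionine at -0.88 and the polymerases at -0.74, while the gluconeogenic and respiratory lists sit near 0.

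The 2 lists with the most fallen genes both belonged to ribosome production. Of 64 genes of the small-subunit processome and 40S assembly 38 fell and 0 rose, and of 77 genes of 60S assembly 47 fell and 2 rose, each with a median of -1.05, against 14.7% fallen and a median of 0.04 over all genes. Of 36 snoRNP and exosome genes 18 fell and 2 rose, and of 40 genes of RNA polymerases I and III 19 fell and 3 rose. Without 1 null array 11 to 17 of the snoRNP and exosome genes fell and 0 rose, the fewest falls without 20 min replicate 3, and 14 to 20 of the polymerase genes fell. The medians of all 4 lists were below 0 in the values as deposited (-1.54, -1.48, -0.91 and -1.17) and after median centring (-1.30, -1.23, -0.67 and -0.93). Leaving out 1 null array gave 24 to 38 fallen small-subunit genes and 27 to 48 fallen 60S genes, the fewest without 20 min replicate 3. With replicate number within each strain as a block 28 genes fell in each of these 2 lists. With the 4 null arrays alone 10 fell in each, while the medians were the same by construction. The lists fell by unequal amounts in the replicates: the small-subunit list had a median of -0.97 in replicate 1 and -1.38 in replicate 3.

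Among the small-subunit genes UTP18, which encodes a processome protein, had 4.62 and 3.16 at 20 min, against 9.06 and 9.89 at 0 min (difference -5.58, SE 0.54, adjusted p = 0.00311). The pulsed values lay under 5, so the size is uncertain, and it ran over -6.32 to -4.85 when 1 array was left out. IPI3, which encodes a protein of 60S processing, had 4.04 and 3.94 at 20 min, against 7.65 and 8.80 at 0 min (difference -4.23, adjusted p = 0.00277). RIX7, which encodes an ATPase of 60S export, had 7.18 and 5.77 at 20 min, against 9.94 and 10.25 at 0 min (difference -3.62, adjusted p = 0.00553) and ran over -4.32 to -2.92. NOP1, the fibrillarin of the box C/D snoRNPs, was measured well within the scale, with 11.11 and 10.77 at 20 min, against 13.17 and 13.52 at 0 min (difference -2.40, SE 0.17, adjusted p = 0.00189). REX4, which encodes a putative RNA exonuclease, and SHQ1, which encodes an assembly factor of the box H/ACA snoRNPs, both fell to pulsed values under 5. REX4 had 3.78 and 3.22 at 20 min, against 7.18 and 7.89 at 0 min and SHQ1 had 4.48 and 4.02 at 20 min, against 8.06 and 8.44 at 0 min (adjusted p = 0.00198 and 0.0015). RPC19, a subunit shared by RNA polymerases I and III, had 8.62 and 8.59 at 20 min, against 11.36 and 12.08 at 0 min (difference -3.12, adjusted p = 0.00244), and RPC82, a subunit of polymerase III, fell by 2.92 (adjusted p = 0.00676). ALB1, a 60S factor with a larger difference, had 7.53 and 4.45 at 20 min, against 10.08 and 11.51 at 0 min, and its fall of 4.81 (adjusted p = 0.0251) was lost at -5.52 without 0 min replicate 1 (adjusted p = 0.0507) and -4.09 without 0 min replicate 3 (adjusted p = 0.101). NOP56, which encodes another box C/D protein, was not called at -0.86 (95% interval -1.75 to 0.03), and was called in the values as deposited at -1.07. Of the risen members REA1, which encodes a large ATPase of 60S maturation, had 13.10 and 12.93 at 20 min, against 12.44 and 12.30 at 0 min (difference 0.65, adjusted p = 0.0107).

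The regulators of ribosome genes did not stand out in the same way, with 3 of 18 fallen and 0 risen (median -0.08). SFP1, which encodes an activator of ribosome production, had 11.32 and 11.15 at 20 min, against 11.27 and 10.78 at 0 min (difference 0.21, 95% interval -0.23 to 0.65), and STB3, which encodes a repressor of such genes, had 11.61 and 11.25 at 20 min, against 11.34 and 10.14 at 0 min (difference 0.70, 95% interval -0.28 to 1.67). STB3 was called as risen at 1.30 without 0 min replicate 1. Of 39 translation factor genes 8 fell (20.5%) and 1 rose (median -0.18), against 14.7% fallen over all genes. After median centring 2 fell, with a median of 0.01, and without 1 null array 2 to 6 did, the fewest without 0 min replicate 3 or 20 min replicate 3. Of 21 tRNA synthetase genes 8 fell (38.1%) and 0 rose (median -0.30), with 5 to 7 fallen without 1 null array. GCN3, which encodes a subunit of the initiation factor eIF2B, had 7.79 and 7.97 at 20 min, against 9.83 and 10.12 at 0 min (difference -2.10, SE 0.13, adjusted p = 0.00162). WRS1 and MES1, the tryptophanyl- and methionyl-tRNA synthetases, fell by 2.04 and 1.80 (adjusted p = 0.00662 and 0.0015).

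Of 66 genes of Gcn4-regulated amino acid synthesis 32 fell (48.5%) and 0 rose (median -0.39), against 14.7% fallen and 12.9% risen over all genes, with 19 to 22 fallen when 1 null array was left out. After median centring 20 fell and 2 rose. HOM3, which encodes the aspartate kinase that opens the path to threonine and methionine, had 10.25 and 10.35 at 20 min, against 13.12 and 13.03 at 0 min (difference -2.78, SE 0.11, adjusted p = 0.000702). SER2, the phosphoserine phosphatase, had 6.17 and 4.52 at 20 min, against 9.86 and 10.44 at 0 min (difference -4.81, adjusted p = 0.00451) and ran over -5.63 to -3.98. HIS1, which encodes the first enzyme of histidine synthesis, had 10.30 and 10.62 at 20 min, against 13.00 and 13.19 at 0 min (difference -2.63, SE 0.16, adjusted p = 0.0016). GCN4 itself, the activator of these genes, which is controlled mostly at translation, was at 15.24 and 15.22 at 20 min, against 15.20 and 14.81 at 0 min and was not called at 0.23 (95% interval -0.17 to 0.63). OAC1, which encodes a mitochondrial carrier of oxaloacetate, fell by 3.74 (adjusted p = 0.00245), and MAE1, the mitochondrial malic enzyme, by 3.04 (adjusted p = 0.00684).

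Of 31 sulfate assimilation and methionine genes 17 fell (54.8%, against 14.7% over all genes) and 0 rose (median -0.88), and 11 to 15 fell without 1 null array. MET14, the adenylylsulfate kinase, had 8.98 and 9.10 at 20 min, against 12.10 and 12.43 at 0 min (difference -3.23, SE 0.20, adjusted p = 0.00165). MET16, the next enzyme of the path, had 7.25 and 6.92 at 20 min, against 10.58 and 10.78 at 0 min (difference -3.60, SE 0.22, adjusted p = 0.00156). SUL2, a sulfate permease, was less even, with falls of 5.31 in replicate 1 and 2.41 in replicate 3. Its mean fall of 3.86 (adjusted p = 0.015) was lost at -3.47 without 0 min replicate 1 (adjusted p = 0.062). In nucleotide synthesis 10 of 34 purine and one-carbon genes fell (29.4%), with 8 to 11 fallen without 1 null array. Of 16 pyrimidine genes 6 fell (37.5%) and 1 rose, but 3 to 4 fell without 1 null array, 3 with either 0 min array left out, and 2 with the 4 null arrays alone. ADE4, which encodes the first enzyme of purine synthesis, had 9.41 and 8.78 at 20 min, against 12.04 and 12.33 at 0 min (difference -3.09, SE 0.24, adjusted p = 0.00218). HPT1, which salvages purines, and DFR1, the dihydrofolate reductase, fell by 2.28 and 1.73, and DUT1, the dUTPase, and URA7, a CTP synthase, by 2.25 and 2.15 (largest adjusted p of the 4 genes = 0.00571).

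Cell cycle genes changed in opposite directions. PCL1, which encodes a G1 cyclin of the kinase Pho85, had 2.71 and 2.69 at 20 min, against 10.14 and 10.13 at 0 min, and its difference of -7.43 (SE 0.09, adjusted p = 7.71e-06) was the largest fall among all genes tested. The pulsed values lay near the bottom of the scale, so its size is not well determined. CLN1, which encodes a G1 cyclin of Cdc28, had 7.08 and 7.72 at 20 min, against 9.91 and 9.20 at 0 min (difference -2.15, adjusted p = 0.00799). FAR1, which encodes an inhibitor of Cdc28 used in pheromone arrest, had 8.42 and 7.86 at 20 min, against 10.61 and 10.45 at 0 min (difference -2.39, SE 0.21, adjusted p = 0.00275). SIC1, which encodes the inhibitor of S-phase kinase, rose by 0.68 (adjusted p = 0.00577), a call lost in the values as deposited. CLN2 and CLN3, further G1 cyclin genes, were not called at 0.51 (95% interval -0.30 to 1.31) and 0.91 (95% interval -0.29 to 2.11). In all, 5 of 24 G1 and Start genes rose (20.8%) and 4 fell (16.7%), against 12.9% and 14.7% over all genes, and the split was 1 to 8 in the values as deposited and 1 to 3 without 0 min replicate 3. Because RNA came from whole cultures, fewer cells in a stage of the cycle and less RNA per cell cannot be told apart.

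Of 35 S-phase and DNA replication genes 14 fell (40%, against 14.7% over all genes) and 0 rose (median -0.35), and 10 to 11 fell without 1 null array. CDC6, which encodes a loader of the replicative helicase, had 5.37 and 5.94 at 20 min, against 8.99 and 8.84 at 0 min (difference -3.26, SE 0.24, adjusted p = 0.00202). RNR1, the large subunit of ribonucleotide reductase, had 9.08 and 10.29 at 20 min, against 12.50 and 11.91 at 0 min (difference -2.52, -3.13 to -1.92 without 1 array, adjusted p = 0.0121), and MCM4, a helicase subunit, had 10.06 and 9.42 at 20 min, against 11.53 and 11.49 at 0 min (difference -1.77, SE 0.23, adjusted p = 0.00642). Among 23 mitotic genes 1 rose and 4 fell (17.4%), a share of falls near that over all genes. In the values as deposited 0 rose and 8 fell, and 1 to 3 fell without 1 null array, the fewest without 20 min replicate 3. CLB2, the main mitotic cyclin, had 2.92 and 2.99 at 20 min, against 7.83 and 5.54 at 0 min, and its steady-state arrays differed from each other by more than 2 log2 units. The call on its fall of 3.73 (adjusted p = 0.0182) was lost at -3.69 without 20 min replicate 1 (adjusted p = 0.0725) and -3.77 without 20 min replicate 3 (adjusted p = 0.0778). Genes of cell separation had 6 of 18 risen (33.3%, against 12.9% over all genes) and 0 fallen (median 0.75), with medians of 0.32 in replicate 1 and 1.79 in replicate 3. Without 0 min replicate 3 or 20 min replicate 3 only 1 of them rose, and 9 did without 0 min replicate 1. DSE2, which encodes a daughter-cell protein that helps to split the septum, shows the spread, with 9.71 and 10.66 at 20 min, against 9.81 and 6.13 at 0 min (difference 2.21, 95% interval -0.70 to 5.12). Its difference was 4.05 without 0 min replicate 1 and 0.37 without 0 min replicate 3.

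Chaperone genes gave some of the tightest falls. SSA2, which encodes a cytosolic Hsp70 present under all conditions, had 11.25 and 11.15 at 20 min, against 14.54 and 14.54 at 0 min (difference -3.34, SE 0.12, adjusted p = 0.000702). YDJ1, its main J-protein partner, had 12.77 and 12.72 at 20 min, against 14.70 and 14.75 at 0 min (difference -1.98, SE 0.09, adjusted p = 0.00101). For each gene the arrays of a time lay close together and the 2 times were far apart. Of 25 heat shock chaperone genes 7 fell (28%, against 14.7% over all genes) and 0 rose, with a median of -0.23 that turned to 0.04 after median centring, and 2 to 3 fell without 1 null array. SSA4, the heat-induced Hsp70 gene, fell by 1.22 (adjusted p = 0.0121), a call lost at -1.13 without 20 min replicate 1 (adjusted p = 0.0553) and -1.23 without 0 min replicate 3 (adjusted p = 0.0514). SSA2 is close in sequence to SSA1, so its probe set may read both.

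Of 30 iron regulon genes 8 rose (26.7%) and 4 fell (13.3%), against 12.9% and 14.7% over all genes (median 0.24). Without 1 null array 4 to 6 rose, 4 with either 20 min array left out, and in the values as deposited 4 rose and 5 fell. FIT2, a cell wall protein gene of siderophore retention, rose by 1.41 (adjusted p = 0.00409) and FRE2, a ferric reductase gene, by 2.09 (adjusted p = 0.00782), while ISU2, which encodes a scaffold of iron-sulfur cluster assembly, had 7.49 and 7.03 at 20 min, against 9.63 and 10.00 at 0 min (difference -2.56, SE 0.21, adjusted p = 0.00244). The call on FRE2 was lost in the values as deposited. Of 24 phosphate genes 4 rose (16.7%) and 3 fell (12.5%), shares near those over all genes. In the values as deposited 1 rose and 4 fell, and 1 to 2 rose without 1 null array. PHO4, which encodes the activator of the phosphate response, had 9.46 and 9.52 at 20 min, against 11.39 and 11.26 at 0 min (difference -1.83, SE 0.10, adjusted p = 0.0015), and PHO5, the acid phosphatase gene it activates, rose by 1.49 (adjusted p = 0.00547), a call lost in the values as deposited. FAA1, a fatty acyl-CoA synthetase gene, rose by 1.36 (adjusted p = 0.00543), and EKI1, the ethanolamine kinase, and ELO3, a fatty acid elongase, fell by 1.90 and 1.67 (adjusted p = 0.00112 and 0.0031). Mating genes had 9 of 26 risen (34.6%) and 4 fallen (15.4%), 4 to 10 risen without 1 null array, 4 with either 20 min array left out, and in the values as deposited 2 risen and 6 fallen.

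Of 12 genes of gluconeogenesis and the glyoxylate cycle 1 rose and 1 fell (8.33% each, against 12.9% and 14.7% over all genes, median -0.03, and 0.27 after median centring), the fallen one being MAE1. FBP1, the fructose-1,6-bisphosphatase, had 14.43 and 14.65 at 20 min, against 14.79 and 14.39 at 0 min (difference -0.05, 95% interval -0.46 to 0.35). PCK1, the PEP carboxykinase, had 15.10 and 15.13 at 20 min, against 15.21 and 15.02 at 0 min (difference 0.00, 95% interval -0.29 to 0.29). ICL1 and MLS1, the enzymes of the glyoxylate cycle, had 95% intervals of -0.46 to 0.34 and -0.56 to 0.23. ADH2, the alcohol dehydrogenase that oxidizes ethanol, and ACS1, an acetyl-CoA synthetase, had 95% intervals of -0.37 to 0.12 and -0.47 to 0.35, and JEN1, the lactate and pyruvate permease, -0.08 to 0.47. The lower ends of these intervals lie at or above -0.56, so a fall larger than that was not seen for these 7 genes at the 95% level. Their levels at 0 min were 14.39 or more, where the highest value of the scale was 15.84. Whether the scale limited a rise was not tested.

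Among activators of such genes, ADR1 and HAP4 gave wider intervals, while that of CAT8 was of similar width. CAT8, which encodes an activator of gluconeogenic genes, had 11.35 and 11.39 at 20 min, against 11.11 and 10.74 at 0 min and was not called at 0.44 (95% interval 0.10 to 0.79, adjusted p = 0.0664), and was called as risen at 0.63 without 0 min replicate 1 and at 0.56 after median centring. ADR1, which encodes an activator of ADH2, had 12.23 and 12.23 at 20 min, against 12.68 and 11.99 at 0 min (difference -0.10, 95% interval -1.36 to 1.15). HAP4, which encodes the activator of respiratory genes, had 11.78 and 11.38 at 20 min, against 12.67 and 11.96 at 0 min. HAP4 was not called at -0.73 (95% interval -1.44 to -0.02, adjusted p = 0.116). Of 21 citric acid cycle genes 0 rose and 1 fell (4.76%), against 12.9% risen and 14.7% fallen over all genes. Of 40 genes of the respiratory chain and ATP synthase 3 rose (7.5%) and 0 fell. The medians of these 2 lists were -0.04 and 0.13, and 0.22 and 0.41 after median centring. Among 24 genes of ethanol and acetate use 4 rose (16.7%) and 3 fell (12.5%), shares near those over all genes, and ALD5, a mitochondrial aldehyde dehydrogenase, had 9.27 and 8.88 at 20 min, against 11.23 and 11.33 at 0 min (difference -2.21, adjusted p = 0.00218).

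In glycolysis 0 of 27 genes rose and 1 fell (3.7%), against 12.9% risen and 14.7% fallen over all genes. After median centring 3 rose and 2 fell. CDC19, the pyruvate kinase, and PDC1, the pyruvate decarboxylase, had 95% intervals of -0.35 to 0.24 and -0.12 to 0.30, at levels of 15.39 and 15.40 for CDC19 and 15.26 and 15.22 for PDC1 in the pulsed arrays. PFK27, which encodes the kinase that makes the glycolytic activator fructose 2,6-bisphosphate, had 7.42 and 6.13 at 20 min, against 6.71 and 7.49 at 0 min (difference -0.32, 95% interval -1.52 to 0.88).

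**Figure D4:**
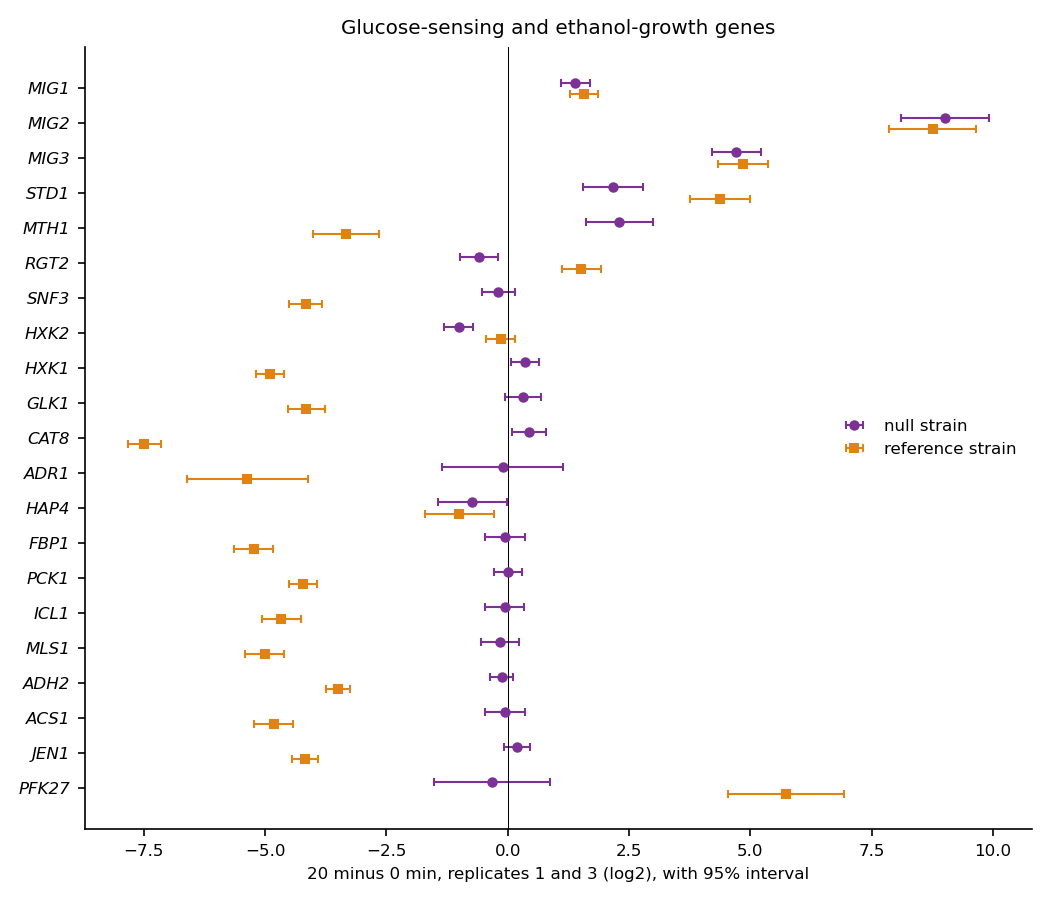
Difference of 20 minus 0 min (log2) with its 95% interval in the null strain (circles) above that in the reference strain (squares), replicates 1 and 3, for 21 genes of glucose sensing and of growth on ethanol. The intervals drawn for MIG2 are not to be read as a test, because MIG2 was used to set replicate 2 aside. The intervals of MIG1 and MIG3 overlap between the strains, and for FBP1, PCK1, ICL1, MLS1, ADH2, ACS1 and JEN1 the null values lie between -0.16 and 0.19.

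The response was then set against that of the reference strain, where limma called 3940 genes (72.3%). The strain difference of the responses, tested as an interaction, was called for 3611 genes (66.3%), 1765 with the null response higher (32.4%) and 1846 with it lower (33.9%). With all 3 replicates under their labels 0 were called (0%), and 17 had an unadjusted p under 0.05. In the reference strain 39.3% of all genes rose and 33% fell. Of the 702 genes that rose in the null strain 273 (38.9%) also rose in the reference strain, a share near that over all genes. Another 274 (39.0%) fell there and 155 (22.1%) were not called there. Of the 799 genes that fell in the null strain 104 (13.0%) fell in the reference strain, 555 (69.5%) rose there and 140 (17.5%) were not called there. All 274 and all 555 genes of opposite direction had a called difference. This was nearly fixed in advance, because they were picked as called with opposite signs in the same fit. Of the 377 genes called in both strains with one sign, 223 had no called difference, which does not show that they responded alike.

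For MIG1, MIG3 and ARI1 no difference between the strains was called. The null response minus the reference response was -0.14 for MIG3 (95% interval -0.86 to 0.58), -0.17 for MIG1 (95% interval -0.58 to 0.24) and 0.10 for ARI1 (95% interval -0.54 to 0.74), so differences of 1 log2 unit fall outside the intervals of these 3 genes. For MIG2 the difference was 0.26, given without a test, with 0 min values near the bottom of the scale. RGS2 rose in both strains, with a difference of -0.72 (95% interval -1.40 to -0.04, adjusted p = 0.06). STD1 rose in both strains, but by less in the null strain, with 2.17 against 4.37 (difference -2.20, SE 0.35, adjusted p = 0.00285). CIN5 and SUT1 rose by more in the null strain. CIN5 rose by 5.92 against 1.44 in the reference strain (difference 4.47, SE 0.55, adjusted p = 0.00107), and SUT1 by 2.93 against 1.96 (difference 0.97, adjusted p = 0.0485).

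Other genes moved apart. MTH1, the paralog of STD1, rose by 2.30 in the null strain and fell by 3.33 in the reference strain (difference 5.63, SE 0.39, adjusted p = 0.000156). USV1 had 3.66 and 4.10 at 20 min, against 11.18 and 10.47 at 0 min in the reference strain, against a rise of 2.48 in the null strain (difference 9.42, adjusted p = 7.19e-05), a size that is uncertain because the pulsed reference values lay under 5. FMP48 rose by 3.82 in the null strain and fell by 1.31 in the reference strain (difference 5.13, SE 0.39, adjusted p = 0.000201). TPK3 fell by 2.33 in the null strain and rose by 2.40 in the reference strain (difference -4.72, SE 0.30, adjusted p = 0.000124). RGT2 and CDC6 likewise differed, by -2.11 and -4.80 (adjusted p = 0.000635 and 0.00017), with falls in the null strain and rises of 1.52 and 1.55 in the reference strain. UTP18 rose by 4.06 in the reference strain, which gives a difference of -9.65 (adjusted p = 0.000238), again with low pulsed values in the null strain.

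Some falls of the null strain met no called change in the reference strain. PCL1 had 10.62 and 10.44 at 20 min, against 10.56 and 10.52 at 0 min in the reference strain (difference of responses -7.42, SE 0.13, adjusted p = 1.71e-05). HOM3 had 13.21 and 13.42 at 20 min, against 13.29 and 13.35 at 0 min there (difference -2.77, SE 0.15, adjusted p = 8.29e-05), and MET14 had 13.06 and 12.66 at 20 min, against 12.86 and 12.52 at 0 min (difference -3.39, SE 0.29, adjusted p = 0.000292). SSA2 fell in both strains, by 3.34 in the null strain and 1.67 in the reference strain, and the difference of -1.67 (SE 0.17, adjusted p = 0.000559) was called. Over all genes 33.9% had a called difference with the lower response in the null strain and 32.4% with the higher one. Over lists, all 77 genes of 60S assembly and 63 of 64 small-subunit genes had a called difference with the lower response in the null strain. In the reference strain 77 and 63 of them rose, where 39.3% of all genes did. For the environmental stress list all 35 genes had a called difference with the higher response in the null strain, and all 35 fell in the reference strain, where 33% of all genes did. For sulfate assimilation and methionine 18 of 31 genes had a lower response in the null strain and 2 a higher one. In the reference strain 11 of them rose, a share near the 39.3% over all genes, and 6 fell, against 33% over all genes.

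**Figure D5:**
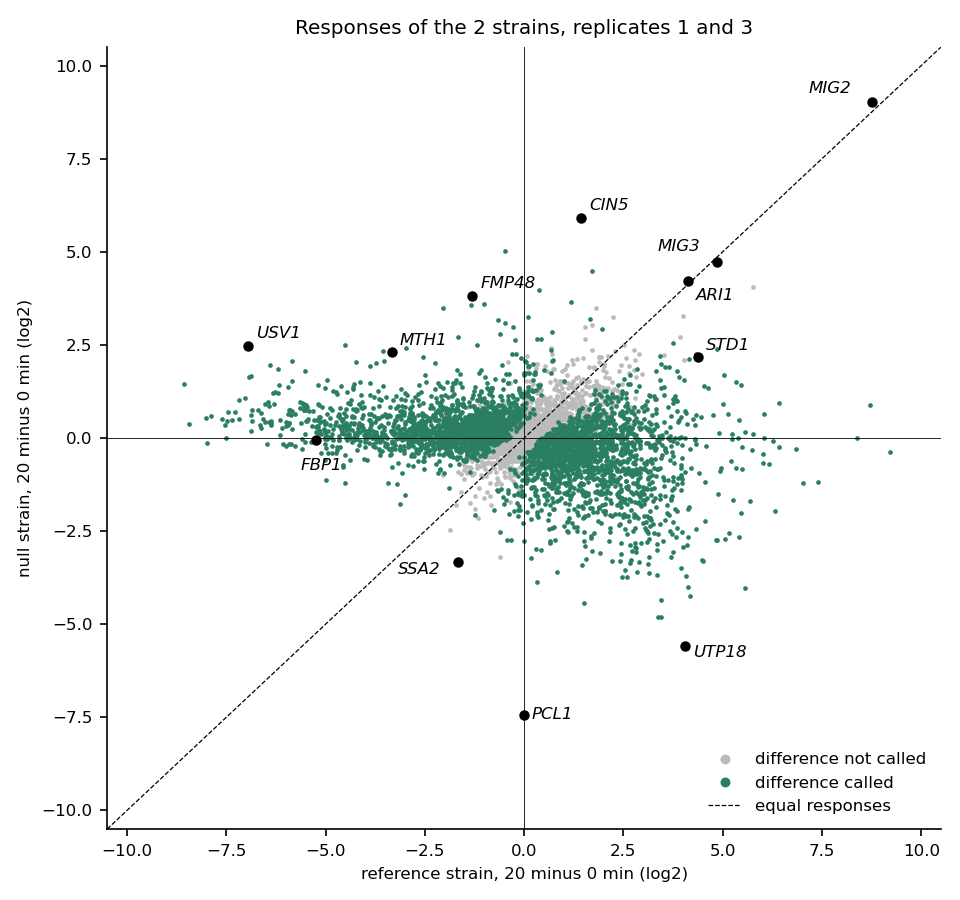
Response of the null strain (vertical axis) against that of the reference strain (horizontal axis), each as 20 minus 0 min (log2, replicates 1 and 3), 1 point per gene. Coloured points are the 3611 genes whose responses differed by limma and the dashed line marks equal responses. MIG2, MIG3 and ARI1 lie at differences of 0.26, -0.14 and 0.10 from the line, CIN5 lies 4.47 above it, and PCL1 lies at -7.43 on the vertical and -0.01 on the horizontal axis.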

How the data were processed

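RNA from chemostat cultures was measured on Affymetrix arrays that carry 10928 probe sets. Per the labels' protocols, total RNA was extracted with Qiagen RNeasy columns with DNase treatment and converted to biotinylated cRNA. The deposited table holds log2 intensities as the authors made them, and the sources used here do not name the software. Probe sets were matched to genes by the gene identifier of the platform annotation and by RefSeq names, 5498 probe sets in all, and the probe set of highest mean was kept for each of 5449 genes. Gene names can be old, and near-identical genes can share a probe set. The array medians ranged over 0.558 log2 units, so quantile normalization over the 12 arrays was applied.

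The 4 group means were fitted with limma 3.58.1 in R 4.3.3 to replicates 1 and 3 (8 arrays, 4 residual degrees of freedom), with Benjamini-Hochberg adjustment over all genes and calls at an adjusted p under 0.05. The same model was fitted to all 12 arrays (8 residual degrees of freedom). SE and 95% intervals come from the fit. The pipeline was tested on simulated data. The number of arrays limits the precision, and p-values measure only the spread between these arrays. Gene lists were written from general knowledge of yeast and are given by counts and medians, without a test of the list. The members of the comparison, the lists and the use of replicates 1 and 3 were chosen with earlier results of these data known. Named genes were MIG2, MIG3 and CIN5, the 15 largest rises and 15 largest falls among called genes with a mean of at least 6 in the higher group, up to 3 called genes in each direction per list, and preset key members. Not all of these are printed. Promoter sequences were not used here, and the planned count of promoter motifs was not run. Plots used matplotlib 3.10.9 and Python 3.11.15.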

Additional observations from a re-analysis of the deposited data

Results flagged for a closer look

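Each of the following is listed because limma called a difference between the 20 min responses of the null and reference strains. The direct test took replicates 1 and 3, with 2 arrays per group. It called 3611 of 5449 genes (66.3%), so a call alone does not set a gene apart. Of the 3611 genes, 555 fell in the null strain and rose in the reference strain, and 274 did the reverse. For genes called with opposite signs in the same fit, a called difference was nearly fixed in advance. On the log2 scale, the null response minus the reference response was 4.47 for CIN5, 5.63 for MTH1, 5.13 for FMP48, 9.42 for USV1 and 0.97 for SUT1, all higher in the null strain. It was -2.20 for STD1, -2.11 for RGT2, -4.72 for TPK3, -9.65 for UTP18, -2.77 for HOM3, -3.39 for MET14, -7.42 for PCL1, -4.80 for CDC6 and -1.67 for SSA2, all lower in the null strain. The sizes for USV1, UTP18 and PCL1 are uncertain, because the pulsed values of a strain lay low on the scale. In all 14 genes the result rests on replicates 1 and 3. The difference was called for 0 genes when replicate 2 was added under its labels at equal weights.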

How the results depend on the processing

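The count of 1501 genes called in the null strain stayed within 1.5 times under the other scalings, probe set rules, intensity filter and variance models. With array weights it was 2079, in a fit of all 12 arrays under their labels. That fit gave replicate 2 arrays weights of 0.055 to 0.37, against 1.035 to 6.017 for the others. It thus leaned on replicates 1 and 3 and is no separate check of them. The genes called were less steady than their count. Of the 1501 genes, 994 were also called with the same sign in the values as deposited, 1137 after median centring and 1350 with array weights. The count was 796 with replicate number within each strain as a block. It was 500 at an adjusted p under 0.01 and 798 with a change of at least 1 log2 unit. With all 12 arrays under the labels at equal weights it was 0. The 4 null arrays alone, a fit with fewer arrays, gave 564. Leaving out 1 null array gave 750 to 1049, the fewest without 20 min replicate 3. The array left alone in its group was then taken to vary like the other groups. The difference between the strains was called for 3611 genes and for 0 with all 12 arrays under the labels, and for 3175 to 3474 without 1 array. With all 3 replicates under the labels the count was 0 under each scaling, with the replicate block and without any 1 null array, and 1501 without replicate 2 in every group. The cause of these shifts was not tested.

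No label states that equal replicate numbers share a culture. Across genes, the deviations of replicates 1 and 3 from their group means had a correlation of -0.29 between 20 and 0 min in the null strain and 0.08 in the reference strain. With the replicate block 1234 genes were called in the null strain, 565 risen and 669 fallen, and 3484 for the difference between strains. With the numbers crossed in the null strain, a pairing added after the data were seen, 1193 genes were called, 553 risen and 640 fallen. Of the 81 called genes that are named, the block cost RGT2 its call, and the block within each strain cost ALB1, CLN1, COX5B, RAS2, RGT2, RNR1, SSA4, SUL2 and YCK2 theirs. No named gene that was called changed its sign under any setting, and 71 kept their call without any 1 null array. With the 4 null arrays alone, 66 of the 81 called genes kept their call. That fit cost ALB1, CLB2, CLN1, CTT1, DCI1, GIS1, MAE1, REA1, RGT2, RIX7, RNR1, RPC82, SUL2, URA7 and YCK2 theirs. Of the 27 named genes without a call, up to 8 turned sign under a setting. Depth has no measure here, and signal near 2.06 or 15.84 leaves sizes unknown.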
